A study of Mus musculus with 28 samples.

Results

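The genes followed here are 7 mast cell genes of the mouse peripheral nerve, taken by name from a table of 41605 genes and not by their values. They are 4 granule proteases (Cpa3, Cma1, Mcpt4 and Tpsb2) and 3 receptor genes (Fcer1a, Ms4a2 and Kit). RNA was measured by bulk poly-A sequencing in 28 libraries, 4 at each of 7 stages, namely the embryonic stages labelled E13 and E17, which the study's text places midway through those days, and postnatal days (P) 1, 5, 14, 24 and 60. All mice were wild-type C57BL/6J without transgene, treatment or perfusion. Each E13 library pooled various nerves of 2 embryos, each E17 library pooled the sciatic nerves of 2 embryos, and each postnatal library came from 1 mouse. Except at E13, nerves were stripped of most of their outer sheaths beforehand, which favours RNA of the endoneurium, the inner compartment with axons, Schwann cells and resident immune cells. The study used both sexes, but the labels do not give the sex of a library, which was therefore not analysed here.

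Mast cells are resident immune cells whose granules store histamine, the proteoglycan serglycin and large amounts of proteases. They depend on the receptor KIT and its ligand, carry the high-affinity IgE receptor, and release their granules when that receptor is cross-linked. In nerves they lie in the endoneurium as well as in the outer sheaths. Cpa3 encodes carboxypeptidase A3, Cma1 and Mcpt4 encode chymases, and Tpsb2 encodes a tryptase. Fcer1a and Ms4a2 encode the alpha and beta chains of the IgE receptor. Kit is the least restricted of these genes, since melanocytes, blood progenitors and some neurons also use it.

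The 4 proteases rose and fell together from library to library, were uneven among the young animals and were high in all 4 adult libraries. Summed over the 4 proteases, the level at E17 ran from 0.543 to 75.4 CPM (counts relative to the TMM-scaled total of the library), a 139-fold range among 4 libraries of 1 stage. At P60 the same sum ran from 18.1 to 31.8 CPM, a 1.76-fold range. Kit followed another course, falling from 47.9 ± 15.7 CPM (SD, n = 4) at E13 to 3.99 ± 1.49 CPM at P24 and reaching 11.4 ± 2.86 CPM at P60. The IgE receptor chains were near 0 until P60, the one stage in which all 4 libraries held counts of both genes. In bulk tissue, a change in the number of mast cells and a change in the RNA per mast cell cannot be told apart.

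Total counts ran from 13899895 to 37662780 per library. Mcpt8 and Prss34, which mark basophils, a blood cell that shares Fcer1a, Ms4a2 and Cpa3 with mast cells, together reached at most 0.307 CPM in any library. Lymphocyte markers summed to at most 2.25 CPM in any library.

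In the GENCODE M21 annotation (GRCm38), Cpa3 lies on chromosome 3 from 20215620 to 20242181. Cma1 (55941451 to 55944675) and Mcpt4 (56059629 to 56062313) lie close to each other on chromosome 14. Tpsb2 lies on chromosome 17 from 25366305 to 25369098, Fcer1a on chromosome 1 from 173221284 to 173227214, Ms4a2 on chromosome 19 from 11615523 to 11623719, and Kit on chromosome 5 from 75574916 to 75656722. All are protein-coding, and no gene other than a microRNA inside Cpa3, with 4 counts in all libraries together, overlapped them. Of the 50-base windows of their transcripts, 5.38% in Cma1, 5.48% in Mcpt4 and 2.1% in Ms4a2 occurred unchanged in transcripts of another gene. The genes sharing windows with Cma1 and Mcpt4 had 0 counts in all libraries, and the gene sharing windows with Ms4a2 had 47.

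RefSeq (GRCm38.p6) gave a promoter for 6 of the 7 genes, all but Tpsb2. The 250 bases before the start are printed for the 3 proteases that have an entry, because these genes moved together, and for Ms4a2, which held the most matches. GATAA, the core of the site read by GATA factors such as the mast cell factor GATA2, was searched on both strands. Capitals mark GATAA or its complement TTATC, and all 4 genes lie on the minus strand, at chr3:20242182-20242431, chr14:55944676-55944925, chr14:56062311-56062560 and chr19:11623720-11623969, with the sequence read 5′ to 3′ along the gene.
Cpa3: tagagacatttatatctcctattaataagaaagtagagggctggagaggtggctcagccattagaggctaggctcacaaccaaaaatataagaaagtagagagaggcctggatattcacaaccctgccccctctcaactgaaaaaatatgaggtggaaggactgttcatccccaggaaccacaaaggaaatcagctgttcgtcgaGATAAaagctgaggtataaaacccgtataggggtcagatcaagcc
Cma1: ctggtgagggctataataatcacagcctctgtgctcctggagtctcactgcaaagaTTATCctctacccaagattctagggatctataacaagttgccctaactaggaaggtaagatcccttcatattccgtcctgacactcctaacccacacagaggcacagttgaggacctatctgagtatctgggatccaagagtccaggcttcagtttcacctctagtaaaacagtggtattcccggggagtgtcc
Mcpt4: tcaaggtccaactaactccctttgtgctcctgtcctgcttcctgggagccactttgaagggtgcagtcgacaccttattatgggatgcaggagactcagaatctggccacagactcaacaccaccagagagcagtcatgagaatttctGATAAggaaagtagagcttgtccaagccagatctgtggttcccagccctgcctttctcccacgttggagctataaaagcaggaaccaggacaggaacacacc
Ms4a2: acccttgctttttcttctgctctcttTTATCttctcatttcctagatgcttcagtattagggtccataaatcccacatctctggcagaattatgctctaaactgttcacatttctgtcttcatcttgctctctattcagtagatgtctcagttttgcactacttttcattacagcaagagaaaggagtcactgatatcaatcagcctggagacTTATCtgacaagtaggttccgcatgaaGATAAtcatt

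The match began 45 bases before the start in Cpa3, 194 in Cma1 and 102 in Mcpt4. Ms4a2 held 3 matches, at 224, 37 and 10 bases before the start, and Fcer1a held 1 at 92. Neither of the RefSeq entries of Kit held GATAA in this window. Thus 5 of the 6 genes with an entry held a match, while 22.5% of the 32536 different promoter windows of this length did. These matches are descriptions of letters and not of bound sites.

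Cpa3, the exopeptidase of the granule, was present from the first stage. It measured 0.629, 0.727, 0.758 and 0.316 CPM in E13 replicates 1 to 4. At E17 the 4 libraries measured 2.86, 4.91, 0.233 and 27.6 CPM, so that replicate 3 lay under every E13 library and replicate 4 above every other library of the timeline. At P1 they measured 0.401, 0, 3.50 and 0.310 CPM, with no count at all in replicate 2.

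The levels of Cpa3 from P5 on were 0.542, 0.659, 8.0 and 1.72 CPM at P5, again with 1 high library, and 1.23, 1.07, 0.122 and 0.228 CPM at P14. At P24 they were 0.394, 0.784, 3.41 and 3.05 CPM. At P60 they came together at 7.23, 4.35, 7.09 and 7.59 CPM, all above every library of P24, P14 and P1.

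Cma1, the first chymase, followed Cpa3 closely. Its E13 libraries measured 0.0662, 1.01, 0.289 and 0.158 CPM and its E17 libraries 3.90, 3.38, 0.155 and 28.8 CPM. The P1 libraries measured 0.146, 0, 2.00 and 0.279 CPM and the P5 libraries 1.58, 1.00, 9.49 and 2.68 CPM. Thus the libraries that were high in Cpa3 (E17 replicate 4, P1 replicate 3 and P5 replicate 3) were high in Cma1 as well. The P14 libraries measured 2.91, 1.53, 0.408 and 0.569 CPM, those of P24 1.26, 0.575, 2.47 and 2.86 CPM, and those of P60 6.50, 2.47, 4.16 and 7.09 CPM. For Cma1 the P24 and P60 libraries overlapped.

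Mcpt4, the second chymase, was the protease that came latest. Only 1 read was counted at E13, in replicate 1. At E17 it measured 0.604, 0.211, 0 and 4.46 CPM, and at P1 0.0364, 0, 1.38 and 0.248 CPM. It was detected in all libraries from P5 on, at 1.17, 0.687, 6.93 and 2.02 CPM at P5 and 2.30, 0.508, 0.572 and 0.645 CPM at P14. The P24 libraries measured 1.58, 0.993, 3.70 and 3.16 CPM and the P60 libraries 12.4, 5.95, 10.1 and 10.2 CPM. The P60 libraries of Mcpt4 overlapped P5, through its replicate 3, and no other stage.

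Tpsb2, the tryptase, had no counts in 2 of the E13 libraries and 0.161 and 0.105 CPM in the others. At E17 it measured 1.04, 2.27, 0.155 and 14.4 CPM, at P1 0.291, 0.166, 2.26 and 0.682 CPM and at P5 0.708, 0.916, 8.94 and 1.25 CPM. The high libraries were those named for Cpa3 and Cma1. At P14 it measured 1.94, 0.791, 0 and 0.418 CPM and at P24 2.21, 0.314, 3.01 and 2.59 CPM. At P60 it was the most even of the proteases, with 5.55, 5.29, 6.71 and 6.90 CPM.

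**Figure D1:**
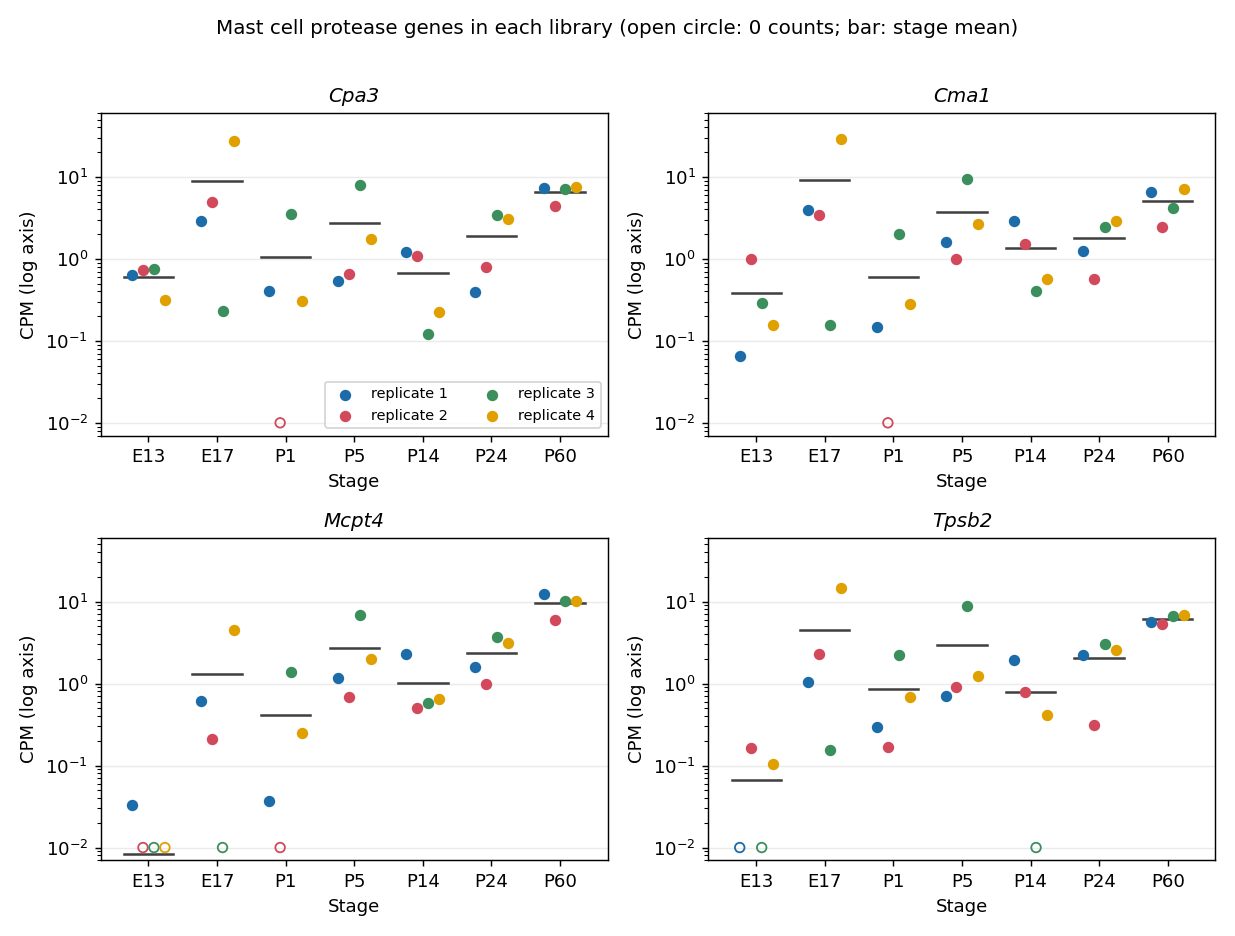
CPM of Cpa3, Cma1, Mcpt4 and Tpsb2 on a log axis in each of the 28 libraries by stage, with filled points for libraries coloured by replicate number, open circles at the foot for libraries with 0 counts, and bars for stage means. E17 replicate 4, P1 replicate 3 and P5 replicate 3 are the highest library of their stage in all 4 panels, and the P60 libraries lie close together.

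The same library was the highest of its stage for all 4 proteases at E17, P1, P5 and P14. At P24 and at P60, 1 library was the highest for 3 of the 4. The same library was the lowest for all 4 at E17 (replicate 3), P1 (replicate 2) and P60 (replicate 2). Kit had its highest library in another replicate than the proteases at E17, P1 and P14 and in the same replicate at P5. At E17, where the proteases were most uneven, Kit measured 37.3, 36.5, 35.4 and 35.9 CPM.

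The spread of the proteases was large for genes of their level. The SD within stages on the log2 CPM scale was 1.64 for Cpa3, 1.59 for Cma1, 1.35 for Mcpt4 and 1.54 for Tpsb2. Genes whose mean level lay within 0.5 of theirs on that scale had a median SD of 0.436 to 0.470, and at least 99.6% of them were less variable than the protease. The biological coefficient of variation in the fit was 97.7% to 101% for the proteases and 20.4% for Kit.

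Cpa3, Cma1 and Tpsb2 had the other proteases as their closest genes, and Mcpt4 did so in part. Likeness was measured as Pearson's r of log2 CPM over the 28 libraries, which share stages, between each gene tested and the other 17699 tested genes. Cma1 was the gene most like Cpa3 (r = 0.904, Spearman's rho = 0.891), followed by Tpsb2 (r = 0.838) and Mcpt4 (r = 0.739). For Cma1 the 3 closest genes were Cpa3, Tpsb2 (r = 0.884) and Mcpt4 (r = 0.828), and for Tpsb2 they were Cma1, Mcpt4 (r = 0.866) and Cpa3. Mcpt4 was closest to Tpsb2, and the genes that came next were Fate1 (r = 0.832) and Gsn (r = 0.83), with Cma1 in place 4 and Cpa3 in place 335.

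Taking the stage means away left the pattern in place for Cpa3, Cma1 and Tpsb2 and changed the order for Mcpt4. On the deviations of each library from its stage mean, the 3 closest genes of Cpa3, of Cma1 and of Tpsb2 were the other 3 proteases. Here r ran from 0.830 to 0.918 and Spearman's rho from 0.715 to 0.897. Mcpt4 had Cma1 (r = 0.894) and Cpa3 (r = 0.878) first, and Dpt (r = 0.863), a gene of the extracellular matrix, before Tpsb2. Without the E13 libraries, the closest genes of Cpa3, Cma1 and Tpsb2 were again the other 3 proteases. Kit stood apart, with r between -0.03 and 0.13 to the 4 proteases on the deviations and -0.58 to -0.05 on the levels. The genes most like Kit in level were Stk32b (r = 0.915), Terf2 (r = 0.910) and Rbmx (r = 0.905).

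**Figure D2:**
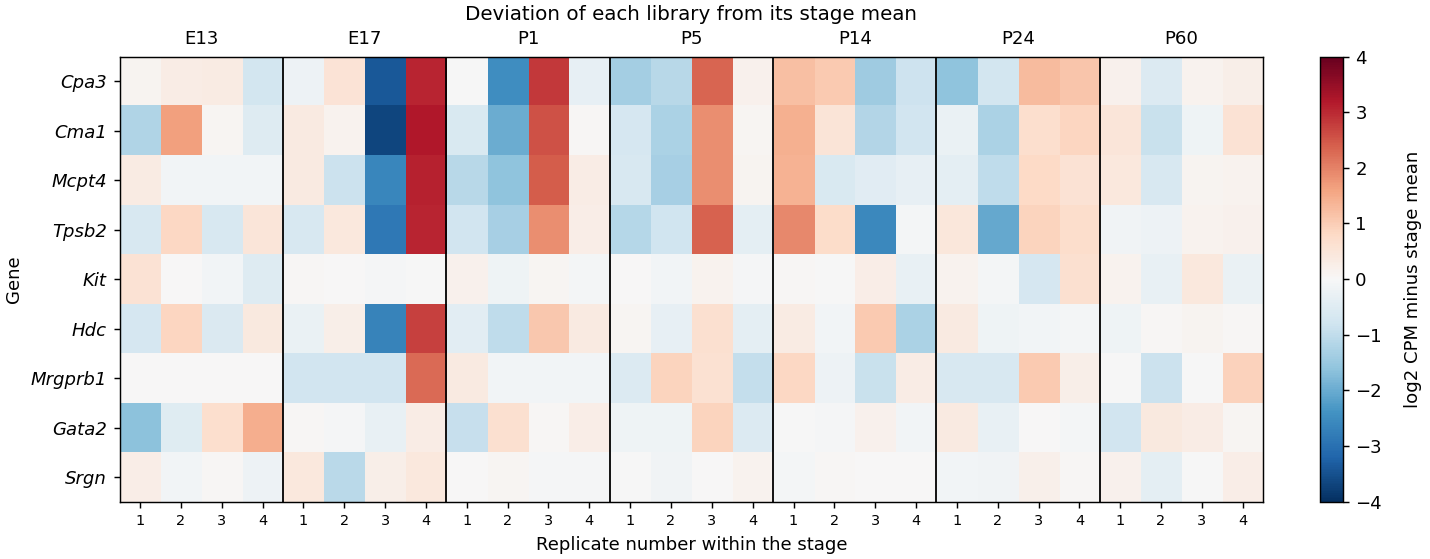
Colour gives the log2 CPM of a library (columns, by stage and replicate number) minus the mean of its stage for the 4 proteases, Kit and 4 other mast cell genes (rows). The columns of E17 replicate 4, P1 replicate 3 and P5 replicate 3 are red, and that of E17 replicate 3 blue, for the proteases and in part for Hdc, while the row of Kit stays pale.

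Other tissue markers also stood high in these libraries, and their part in the protease values was not tested. In E17 replicate 4 the 5 erythroid markers summed to 998 CPM against 357 to 509 CPM in the other E17 libraries, and the 5 skeletal muscle markers to 11.5 against 2.99 to 9.67 CPM. Neutrophil markers (2.45 against 0.824 to 1.69 CPM) and melanocyte markers (2.58 against at most 1.64 CPM) were also highest there, and the 4 endothelial markers lowest (199 against 216 to 242 CPM). Its 2 epineurial markers (4.65 CPM) and 6 macrophage markers (110 CPM) lay within the range of the others. In P1 replicate 3 the erythroid sum was 173 against 56.5 to 141 CPM and the skeletal muscle sum 1.82 against 0.310 to 0.624 CPM. In P5 replicate 3 the 4 adipocyte markers summed to 7.14 against 0.0286 to 5.03 CPM and the 2 perineurial markers to 181 against 135 to 168 CPM. The endothelial sum was highest in P1 replicate 3 (138 against 114 to 125 CPM) and in P5 replicate 3 (192 against 155 to 165 CPM). At the later stages too, the library highest in summed proteases had the highest adipocyte sum, with 24.4 against 0.949 to 20.5 CPM at P14 (replicate 1), 77.2 against 1.36 to 44.0 CPM at P24 (replicate 3) and 152 against 58.3 to 123 CPM at P60 (replicate 4). The endothelial sum was highest in that library at P14 and P24 and not at P60. The epineurial sum was highest in P5 replicate 3 (11.3 against 8.62 to 10.9 CPM). It was narrowly so in P1 replicate 3 (6.60 against at most 6.59 CPM) and P24 replicate 3 (81.8 against at most 81.6 CPM), and not at P14 or P60. The macrophage sum was highest in P5 replicate 3 (259 against 216 to 254 CPM) and not in the matching library of P1, P14, P24 or P60.

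The first comparison asked what changed between E13 and E17. All 4 proteases rose, in a fit over all 28 libraries (edgeR's quasi-likelihood test, Benjamini-Hochberg adjusted over 17700 genes, called at an adjusted p under 0.05 and a change of at least 2-fold). The log2 fold change was 3.82 ± 1.10 (SE) for Cpa3 (adjusted p = 0.00379), 4.55 ± 1.14 for Cma1 (adjusted p = 0.00114), 6.35 ± 1.74 for Mcpt4 (adjusted p = 0.00257) and 6.07 ± 1.42 for Tpsb2 (adjusted p = 0.000587). Kit, at -0.40 ± 0.21, was not called. In this comparison 35.5% of all genes tested were called, so 4 calls among the 5 members tested stand against a high background. The median over the 5 members was 4.55 and over all genes -0.08. Markers of other cells moved in the same step, and their part in the rise was not tested. The macrophage sum went from 401 ± 65.0 to 109 ± 2.81 CPM, the sensory neuron sum from 59.3 ± 29.6 to 1.29 ± 0.474 CPM and the neutrophil sum from 39.6 ± 16 to 1.56 ± 0.690 CPM. The erythroid sum went from 2556 ± 2799 to 581 ± 285 CPM. In the direction of the proteases, the perineurial sum went from 45.2 ± 19.0 to 206 ± 20 CPM, the epineurial sum from 1.95 ± 0.560 to 4.60 ± 0.681 CPM and the endothelial sum from 146 ± 16 to 223 ± 19.5 CPM. The E13 libraries also came from various nerves and the E17 libraries from the sciatic nerve.

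The size of this rise, and in part its calls, depended on which libraries were in the fit. Without E17 replicate 4, Cma1 (2.67) and Tpsb2 (4.10) were still called, while Cpa3 (2.07, adjusted p = 0.0876) and Mcpt4 (4.05, adjusted p = 0.0778) were not. When P1 replicate 3 and P5 replicate 3, the other libraries high in proteases, were left out as well, a choice made after the values were seen, all 4 were called at nearly the same values (2.08 for Cpa3, 2.67 for Cma1, 4.05 for Mcpt4 and 4.10 for Tpsb2, with adjusted p from 0.00268 to 0.0271). limma-voom with sample quality weights called none of the 4, at values of 1.80 for Cpa3, 2.82 for Cma1, 3.88 for Mcpt4 and 5.80 for Tpsb2. Cpa3 was not called either without the 3 libraries of steepest GC trend, E13 replicates 1 and 4 and P1 replicate 1 (3.56, adjusted p = 0.0632). E17 replicate 3 lay below at least 1 E13 library for all 4 genes.

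From E17 to P1, Cpa3 fell by 3.06 on the log2 scale (SE 1.03, adjusted p = 0.0257) and Cma1 by 3.86 (SE 1.07, adjusted p = 0.00679), in the edgeR fit. Mcpt4 (-1.55 ± 1.00) and Tpsb2 (-2.35 ± 1.00) were not called, and 11.7% of all genes were. Without E17 replicate 4 no protease was called in this step and the sign of Mcpt4 turned (0.74), whereas without P1 replicate 3 all 4 were called lower. The call of Cpa3 was also lost without any single one of P1 replicates 1, 2 and 4, and Tpsb2 was called without E17 replicate 3. With E17 replicate 4, P1 replicate 3 and P5 replicate 3 all left out, Cpa3 (-3.38, adjusted p = 0.0115) and Cma1 (-3.95, adjusted p = 0.00770) were called and Mcpt4 was at -1.21. Cpa3 and Cma1 were called neither with limma-voom and sample quality weights (-3.22 and -3.36) nor in a fit on the compared stages alone (-3.01 and -3.82). Markers of other cells moved in this step too, and their part in the fall was not tested. The erythroid sum went from 581 ± 285 to 118 ± 50.5 CPM, the skeletal muscle sum from 6.94 ± 4.28 to 0.808 ± 0.688 CPM, the endothelial sum from 223 ± 19.5 to 124 ± 10.1 CPM and the melanocyte sum from 1.74 ± 0.571 to 12.7 ± 2.81 CPM. Kit decreased by 0.90 (SE 0.21, adjusted p = 0.00154), which is under 2-fold.

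Neither the step from P1 to P5 nor that from P5 to P14 brought a call in the edgeR fit with stage as its only term, against 5.84% and 12% of all genes. In the first of them the 4 proteases had log2 fold changes of 1.35 (Cpa3), 2.57 (Cma1), 2.65 (Mcpt4) and 1.76 (Tpsb2), with standard errors from 0.953 to 1.05. Adjusted p-values in this edgeR contrast ran from 0.0546 for Mcpt4 to 0.417 for Cpa3. Without P5 replicate 3 the value of Cpa3 was -0.11, and without P1 replicate 3 Cma1 (4.53) and Mcpt4 (4.60) were called. In the second step the values of the 4 lay between -2.09 and -1.42. At an unadjusted p below 0.05, 3 of the 5 members passed from P1 to P5 (Cma1, Mcpt4 and Kit), against 29.1% of all genes, and 0 from P5 to P14, against 39% of all genes. DESeq2 called 0 in both steps, and limma-voom with sample quality weights called Mcpt4 from P1 to P5 and 0 in the second.

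From P14 to P24 only Kit was called among the members, lower by a log2 change of -1.40 ± 0.23 (edgeR, adjusted p = 0.000207), in a step in which 2.65% of all genes were called. The P24 libraries (4.18, 3.56, 2.32 and 5.90 CPM) all lay under those of P14 (10.9, 10.3, 12.7 and 8.43 CPM). The proteases had values from 0.47 to 1.65 with standard errors of 0.902 to 1.13.

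From P24 to P60 Kit rose again, by 1.50 ± 0.23 (edgeR, adjusted p = 2.56e-05), with 12.3, 8.99, 15.0 and 9.16 CPM at P60 and no overlap with P24. The background of calls was 5.96%. The proteases had log2 fold changes of 1.73 (Cpa3), 1.46 (Cma1), 2.01 (Mcpt4) and 1.58 (Tpsb2) and were not called in the fit over all stages, whose estimate of the spread also takes in the younger libraries. In a fit on the P24 and P60 libraries alone, all 5 members tested were called, against 6.04% of the 14793 genes in that fit, with adjusted p-values (edgeR) of 0.0459 for Cpa3, 0.0435 for Cma1, 0.00359 for Mcpt4 and 0.0293 for Tpsb2. Both fits gave nearly the same fold changes.

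Over the whole postnatal period, from P1 to P60, all 4 proteases rose. The log2 fold change was 2.63 ± 1.03 for Cpa3 (edgeR, adjusted p = 0.0289), 3.04 ± 1.06 for Cma1 (adjusted p = 0.0151), 4.50 ± 0.98 for Mcpt4 (adjusted p = 0.000260) and 2.83 ± 1.01 for Tpsb2 (adjusted p = 0.0169). Every P60 library lay above every P1 library for all 4 genes, in a comparison in which 35.5% of all genes were called. Without P1 replicate 3 the values were 4.71, 5.02, 6.46 and 3.95 in the order Cpa3, Cma1, Mcpt4 and Tpsb2. The call of Cpa3 was lost without any single one of P1 replicates 1, 2 and 4 and P60 replicate 4, and that of Tpsb2 without P1 replicate 2, whereas Cma1 and Mcpt4 were called whichever single library was left out. Cpa3 was also not called with no filter on low counts (2.57, adjusted p = 0.0793) or without the E13 libraries (2.64, adjusted p = 0.0516). Without the 3 libraries of steepest GC trend, Cpa3 (2.40), Cma1 (2.75) and Tpsb2 (2.57) kept values close to these but were not called (edgeR, adjusted p = 0.107, 0.0692 and 0.0738). Kit was lower at P60 by a log2 change of -0.77 ± 0.21 (adjusted p = 0.00270), again under 2-fold.

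**Figure D3:**
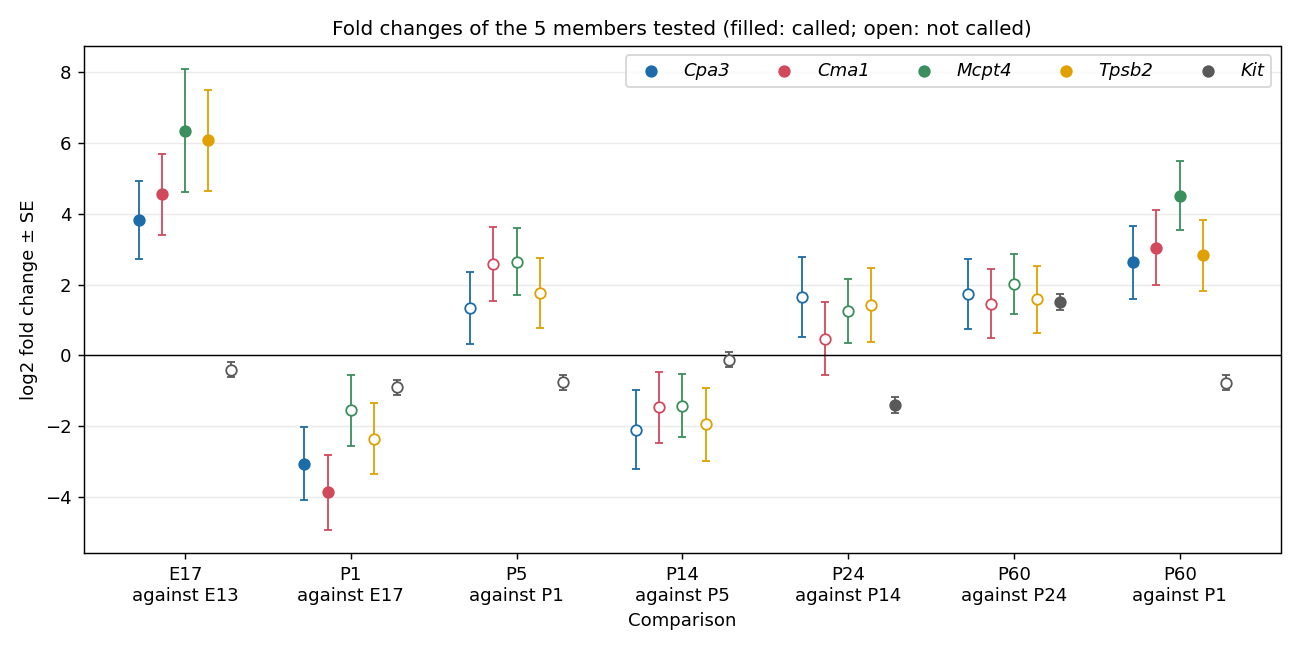
Log2 fold change with its standard error in the edgeR fit for Cpa3, Cma1, Mcpt4, Tpsb2 and Kit in the 7 comparisons, with filled points for called changes and open points for the others. All 4 proteases are called from E13 to E17 and from P1 to P60, Cpa3 and Cma1 also from E17 to P1, and their error bars are several times those of Kit.

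A test of any change along the timeline called all 5 members tested, with adjusted p-values (edgeR) of 0.00337 for Cpa3, 0.00225 for Cma1, 1.91e-05 for Mcpt4, 0.00149 for Tpsb2 and 2.20e-13 for Kit. Of all genes, 70.3% were called by this test, which also asked that stage means differ by at least 1 on the log2 scale. With limma-voom and sample quality weights, 2 of the 5 were called.

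The order of the stage means shows how little neighbouring stages of the proteases could be told apart. Cpa3 ran E17, P60, P5, P24, P1, P14 and E13 from highest to lowest, with no pair of neighbours differing (edgeR, adjusted p from 0.276 to 0.989). Cma1 ran E17, P60, P5, P24, P14, P1 and E13, again with no neighbours differing. Mcpt4 ran P60, P5, P24, E17, P14, P1 and E13, where P1 differed from E13 (edgeR, adjusted p = 0.0339) and P60 missed the threshold against P5 (adjusted p = 0.0636). Tpsb2 ran P60, E17, P5, P24, P1, P14 and E13, and P14 differed from E13 (edgeR, adjusted p = 0.0483).

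Kit had a firmer order, E13, E17, P1, P5, P60, P14 and P24. E17 lay above P1, P1 above P5 (edgeR, adjusted p = 0.0118) and P14 above P24, each without overlap of libraries. E13 and E17 (adjusted p = 0.0915), P5 and P60, and P60 and P14 did not differ beyond their spread.

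Per kilobase of exon, with all annotated exons of a gene merged, Kit was the highest member at E13. It had 5.37 CPM per kb, against 0.400 for Cpa3 and 0.349 for Cma1. The merged length was 8.91 kb for Kit and 1.09 to 1.59 kb for the proteases. A gene whose transcript is shorter than the merged length is understated on this scale, so the orders between genes are rough. At E17 the mean of Cma1 (8.32 CPM per kb) and that of Cpa3 (5.87) lay above that of Kit (4.07), through replicate 4 alone. In E17 replicates 1 to 3 Kit, at 4.18, 4.10 and 3.97 CPM per kb, lay above Cma1 (3.58, 3.10 and 0.142) and Cpa3 (1.88, 3.24 and 0.153). At P60 Mcpt4 led with 8.72 CPM per kb, then Cma1 with 4.64, Cpa3 with 4.33 and Tpsb2 with 3.84. Kit (1.28 CPM per kb), Fcer1a (0.517) and Ms4a2 (0.161) were the lowest members in the adult.

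The share of Mcpt4 among the chymase counts was low at E17 and highest at P60, in differences that missed the threshold after adjustment. Mcpt4 made up 13.4% of the Mcpt4 and Cma1 counts in E17 replicate 1 (11 of 82 counts, 95% Wilson interval 7.66% to 22.4%), 5.88% in replicate 2 (4 of 68) and 13.4% in replicate 4 (71 of 530). At P5 it made up 42.4%, 40.7%, 42.2% and 43.0%, although the counts of the pair ran from 59 to 384. At P60 it made up 65.6%, 70.7%, 70.7% and 59.1%. Thus E17 replicate 4 and P5 replicate 3, both high in proteases, had the share of their stage and not a common one.

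Between these stages P14 ran from 25% to 58.3% and P24 from 52.5% to 63.3%. Libraries with fewer than 10 counts of the pair were left out, which left 2 libraries at P1 (40.9% and 47.1%) and 1 at E13, with 0 of 25 counts, which allows a share of up to 13.3%. The share was higher at P60 than at P5 by 24.5 percentage points, with no overlap (two-sided exact permutation test, p = 0.0286, the smallest that 4 against 4 libraries allow). It was higher at P60 than at E17 by 55.6 points (exact permutation p = 0.0571, the smallest that 4 against 3 allow). Over the 5 stage pairs tested, the adjusted exact permutation p was 0.143 for both, which misses the threshold. With Cpa3 or Tpsb2 in place of Cma1 as the partner, the difference between P60 and P5 was 4.33 and 7.79 points and that between P60 and E17 47.4 and 37.5 points. This ratio was chosen after the values were seen, and the intervals cover counting error only.

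**Figure D4:**
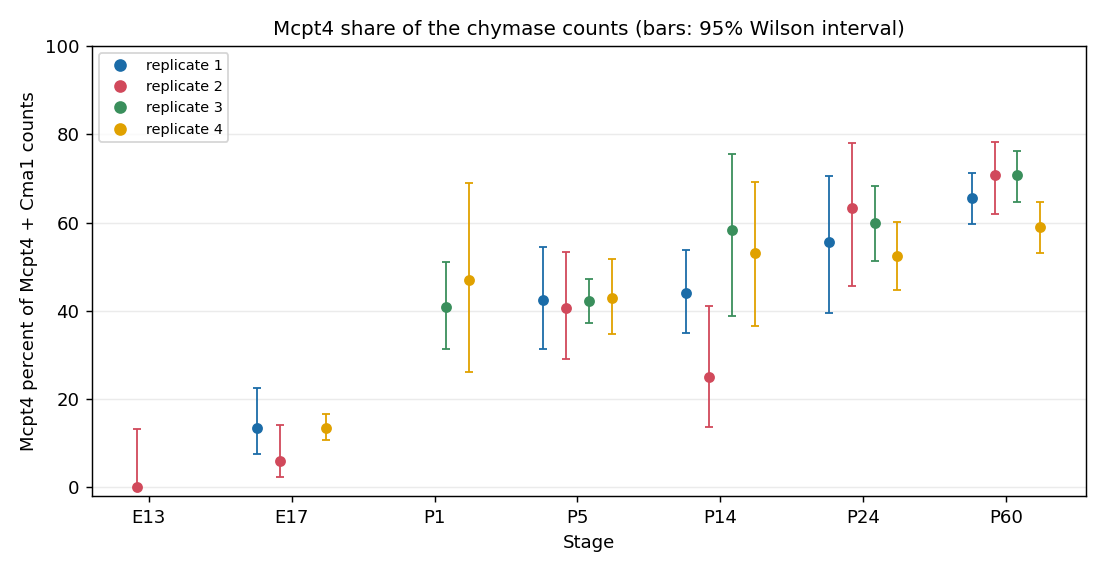
Mcpt4 as a percentage of the Mcpt4 and Cma1 counts in each library with at least 10 counts of the pair, by stage and replicate number, with 95% Wilson intervals that cover counting error only. The E17 libraries lie at or under 13.4%, the P5 libraries between 40.7% and 43.0%, and the P60 libraries between 59.1% and 70.7%.

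Among the 4 proteases together, Mcpt4 took 3.77% ± 3.36 (SD, n = 4) of the counts at E17, 24.3% ± 4.11 at P5 and 35.0% ± 3.20 at P60. Cpa3 took 39.8% ± 5.37 at E17 and 24% ± 1.01 at P60. Cma1 took 36.1% ± 7.95 at E17 and 17.8% ± 4.22 at P60. The share of Tpsb2 was 20.3% ± 6.64 at E17 and 23.1% ± 4.92 at P60.

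Fcer1a, the IgE-binding chain of the receptor, measured 0.658, 0.218, 0.559 and 0.628 CPM at P60 from 9, 3, 9 and 10 counts. In the 24 younger libraries together it had 6 counts, in 5 libraries. Of these 6 counts, 5 lay in E17 replicate 4, P1 replicate 3, P5 replicate 3 and P24 replicate 3, each the highest of its stage in summed proteases, a feature noticed after the values were seen. The P60 counts were 41.0-fold those of P24 per scaled total (31 against 1 count, 95% exact interval 6.83 to 1670 for counting error). Against P14, with 0 counts in 4 libraries, P60 was 15.3-fold higher if 3 counts over the stage are taken as the floor. The lower limit of the exact 95% interval was 11.7.

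Ms4a2, the beta chain that amplifies the signal of the receptor, measured 0.731, 0.145, 0.311 and 0.628 CPM at P60 from 10, 2, 5 and 10 counts. The younger libraries held 24 counts in all, in 11 of 24 libraries, and 9 of these lay in the 6 libraries that were each the highest of their stage in summed proteases. The P60 counts were 5.10-fold those of P24 (27 against 7 counts, 95% exact interval 2.17 to 13.9). P60 replicate 2 was the lowest P60 library for both chains, as it was for the 4 proteases.

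Both genes were too low for the fit, in which 5 of the 7 members passed the filter on low counts. Every P60 library was above every library of each younger stage for Fcer1a (two-sided exact permutation test on CPM, p = 0.0286 against each, adjusted p = 0.0343 over 12 tests). For Ms4a2 this held against E13, P1, P5 and P14, while 3 of the 4 P60 libraries lay above all of E17 and of P24 (exact permutation p = 0.0571). With all 28624 genes that had counts in an unfiltered edgeR fit, the P1 to P60 change was called for Fcer1a (adjusted p = 0.00126) and for Ms4a2 (adjusted p = 0.00188), against 24% of all genes in that fit. From P24 to P60 it called Fcer1a (adjusted p = 0.0143) and not Ms4a2 (adjusted p = 0.194).

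**Figure D5:**
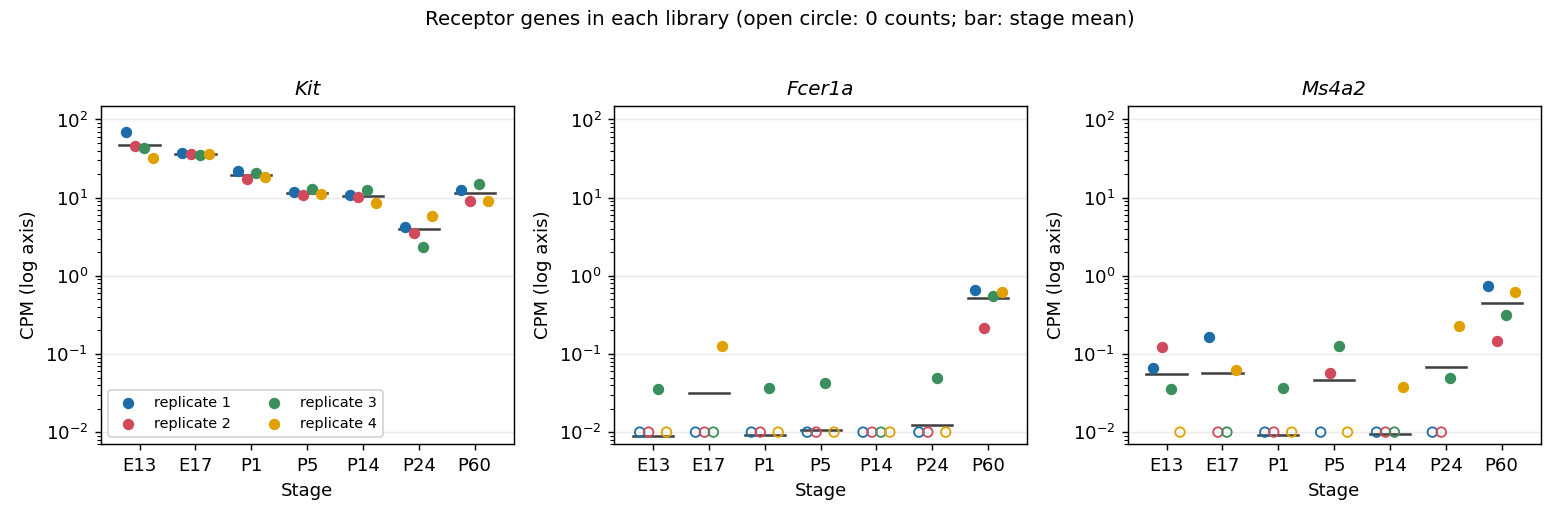
CPM of Kit, Fcer1a and Ms4a2 on a log axis in each library by stage, with filled points for libraries coloured by replicate number, open circles at the foot for libraries with 0 counts and bars for stage means. Kit falls from between 32.5 and 69.6 CPM at E13 to between 2.32 and 5.90 CPM at P24, and Fcer1a is above 0.2 CPM in the P60 libraries only.

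Kit, the receptor for stem cell factor, measured 69.6, 46.4, 43.0 and 32.5 CPM at E13, the largest SD of its stages, although its fold range was wider at P24 (2.54 against 2.14). It measured 21.6, 17.2, 20.5 and 18.5 CPM at P1 and 11.7, 10.7, 12.7 and 11 CPM at P5. Its mean was highest at E13, the stage at which the means of all 4 proteases were lowest. The 5 melanocyte markers, of a cell type that also uses Kit, summed to 4.43 ± 2.10 CPM at E13, 12.7 ± 2.81 CPM at P1, 30.3 ± 3.06 CPM at P5 and 4.33 ± 0.67 CPM at P24. The 5 erythroid markers summed to between 661 and 6720 CPM at E13. The 4 sensory neuron markers measured, of another cell type that uses Kit in part, summed to 101, 53.0, 52.6 and 30.7 CPM in E13 replicates 1 to 4, in the same order as Kit, and to 1.29 ± 0.474 CPM at E17. Kitl ran in this order at E13 too, at 42.5, 22.5, 16.9 and 6.52 CPM in replicates 1 to 4. E13 replicates 1 and 4, the highest and lowest of that stage for Kit, are among the 3 libraries of steepest GC trend. The part of these cells and of that trend in the Kit values was not tested.

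A wider list of 45 genes of mast cells and their pathways was read beside the members, of which 33 passed the filter. From E13 to E17, 7 of the 33 rose and 13 fell, at a median log2 change of -0.58, and from P1 to P60, 14 rose and 1 fell, at a median of 0.72 against -0.02 for all genes. Of all genes, 35.5% were called in each of these comparisons. From E17 to P1, Fyn and Mitf rose and Kitl, Tal1 and Hdc fell (11.7% of all genes called). From P1 to P5, Syk and Mrgprb1 rose (5.84%). From P5 to P14, Il1rl1, Il33, Gata2, Srgn and Alox5 rose and Btk fell (12%). Btk rose from P14 to P24 (2.65%), and Lat and Mrgprb1 rose from P24 to P60 (5.96%). In these middle steps the calls, of 33 genes, were few and mostly near the background, and many of the genes are used by other cells. Fyn reached 549 CPM and Cd63 304 CPM in a library, against at most 75.4 CPM for the 4 proteases summed. The calls of this list are therefore not calls of mast cell RNA alone.

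The 8 other proteases of the list were too low to test. Tpsab1, the second tryptase gene, had a mean of 0.123 CPM at P60, against 6.12 CPM for Tpsb2. Mcpt1, Mcpt2 and Mcpt9, which belong to mucosal or other mast cell types, and Cma2 had no counts at E17 or at P60.

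Of the 12 genes of granule content and lipid mediators, 2 rose and 6 fell from E13 to E17, and 7 rose and 0 fell from P1 to P60, against 35.5% of all genes called in each of these comparisons. From E13 to E17, Hdc (3.07) and Cd63 (1.20), a membrane protein of granules and other vesicles, rose. Slc18a2 (-3.31), which loads amines into granules, Rab27b (-3.69), Hpgds (-1.54), Ptgs1 (-1.97), Alox5 (-1.39) and Ltc4s (-2.87) fell, in a direction opposite to the proteases. Hdc, which makes histamine, came nearest to the proteases, in place 4 of the genes like Cpa3 and place 9 of those like Cma1. It measured 2.03, 2.90, 0.310 and 16.8 CPM at E17 and 0.109, 0.0416, 0.474 and 0.248 CPM at P1, a fall of log2 -4.58 ± 0.80 (edgeR, adjusted p = 7.21e-05). At P60 it was at 0.921 ± 0.082 CPM (0.804, 0.943, 0.994 and 0.941 CPM). These libraries lay above every P1 library and under E17 replicates 1, 2 and 4. Srgn, the serglycin core protein, measured 1.16 to 3.41 CPM at E17, with no single high library, and rose from between 2.29 and 2.50 CPM at P1 to between 40.5 and 63.7 CPM at P60 (log2 4.52 ± 0.21, edgeR, adjusted p = 2.73e-16). Alox5 (2.84), Ptgs1 (1.61), Alox5ap (1.26) and Ltc4s (1.54), of leukotriene and prostaglandin synthesis, rose over the same period.

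Of the genes for growth and survival signals, Kitl, the ligand of KIT, rose from E13 to E17 (log2 1.47 ± 0.29, edgeR, adjusted p = 8.35e-05) and fell from E17 to P1 (-1.08 ± 0.29, adjusted p = 0.00470). It measured 54.8 to 67.1 CPM at E17, and E17 replicate 4 held the highest of these values. Il1rl1, the receptor for interleukin 33, rose by 3.29 ± 0.48 from P1 to P60 and Il33 itself by 3.38 ± 0.28, to 86.7 ± 21.5 CPM. Csf2rb, the shared beta chain of interleukin receptors, rose by 2.41 ± 0.23.

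Among surface receptors Mrgprb1 rose from P24 to P60 (log2 4.15 ± 0.99, edgeR, adjusted p = 0.00475), with 1.24, 0.653, 1.24 and 2.51 CPM at P60. In a fit on the compared stages alone, and with a filter at 1 CPM, no gene of the wider list was called from P24 to P60. At E17 Mrgprb1 had counts in replicate 4 and in no other library of that stage. It stood in place 6 of the genes like Cpa3 and place 9 of those like Tpsb2. Mrgprb2, the receptor for cationic peptides, was below the filter and also had counts at E17 in replicate 4 alone.

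Of the transcription factors Gata2 fell from E13 to E17 (log2 -3.45 ± 0.47, edgeR, adjusted p = 4.76e-07) and rose from P1 to P60 by 3.57 ± 0.50. Its P60 libraries measured 3.07, 6.89, 6.53 and 5.59 CPM. Mitf, which melanocytes and Schwann cells can also express, rose from E17 to P1 by 3.74 ± 0.17 and was not called from P1 to P60. Of the 11 IgE receptor signalling genes, Fcer1g, Syk, Lcp2, Plcg2 and Btk fell from E13 to E17, against 35.5% of all genes called, and from P1 to P60 Plcg2 rose and Fyn fell. Fcer1g, the gamma chain of the receptor and of other immune receptors, measured 22.1 to 34.3 CPM at E13 and 9.23 to 13.3 CPM at P60, within the range of 9.04 to 16 CPM at P24.

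The rise at P60 coincided with more RNA of several other nerve layers and cells and less of others, whose part in it was not tested. The 4 adipocyte markers summed to 0.137 ± 0.076 CPM at P1, 40.6 ± 31.0 CPM at P24 and 101 ± 44.1 CPM at P60. The 2 epineurial markers summed to 5.23 ± 1.67 CPM at P1, 75.9 ± 10.5 CPM at P24 and 109 ± 6.79 CPM at P60, and the 2 perineurial markers to 136 ± 35.3, 582 ± 71.4 and 1069 ± 115 CPM. The 6 macrophage markers were at 119 ± 8.92 CPM at P1, 256 ± 56.8 CPM at P24 and 227 ± 30.6 CPM at P60, and the 4 endothelial markers at 124 ± 10.1, 248 ± 52.2 and 334 ± 13.2 CPM. Among the sums that were lower at P60, the erythroid sum was 118 ± 50.5, 139 ± 51.0 and 34.7 ± 12.4 CPM at P1, P24 and P60. The melanocyte sum was 12.7 ± 2.81, 4.33 ± 0.67 and 1.84 ± 0.742 CPM.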

How the data were processed

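RNA was measured in 28 libraries, 4 per stage. The authors deposited raw read counts per gene, not normalized, which they made from single-end reads of stranded poly-A libraries with STAR and featureCounts. The submitters' processing notes name STAR 2.6.1c and the build GRCm38.p5, while strand and multimapping settings are not given in the sources used here. Of 41605 gene identifiers 41519 matched GENCODE M21, the source of symbols, coordinates and exon lengths. The total was 13899895 to 37662780 counts per library.

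Genes were kept by filterByExpr (17700 genes) and scaled by TMM, and 1 quasi-likelihood fit with stage as its term was made in edgeR 4.0.16 (R 4.3.3). The standard error is the log2 fold change over the square root of F. The study states no test between these stages, so this fit was chosen here. In counts simulated for P60 against P24, 200 of 200 genes changed by 4-fold were recovered, with 1 false call among 17700 genes. The simulation changed only well-counted genes and gave every gene the same dispersion (squared biological coefficient of variation), near the common value of 0.0439. The proteases had dispersions of 0.954 to 1.02, so this recovery does not show the power for them. Likeness and deviations used log2 CPM with a prior count of 2. Shares, intervals (95%) and exact tests were computed in scipy 1.17.1, with a floor of 3 counts. Alternatives were other scalings and filters, limma-voom with a quality weight per library (limma 3.58.1), DESeq2 1.42.0, subsets of stages or libraries, a block for the number of the replicate, no fold minimum and each library left out. Members, lists and tests were chosen with earlier results of these data known. All 7 members are named, and genes of the wider list could be named if they reached a mean of 1 CPM in a stage and were called at least once. Other list genes are named as not detected or as examples chosen after their values were seen. The Schwann cell marker sum is not reported here.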

Additional observations from a re-analysis of the deposited data

Results flagged for a closer look

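In groups of 4 libraries of 1 stage, a gap from the highest or lowest library to its nearest neighbour above Dixon's 95% critical share of the whole range was taken as a library far from the others. Of 48 groups of member values 18 held such a library. The share is set to flag about 1 in 20 groups of normal values. That rate does not hold for low, skewed counts, so the 18 cannot be read as an excess over chance. The members of a stage share their libraries, so the 18 are not independent.

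E17 replicate 4 stood apart for all 4 proteases, with 27.6 CPM of Cpa3 (others 0.233 to 4.91), 28.8 CPM of Cma1 (0.155 to 3.90), 4.46 CPM of Mcpt4 (0 to 0.604) and 14.4 CPM of Tpsb2 (0.155 to 2.27). P1 replicate 3 stood apart with 3.50 CPM of Cpa3 (others 0 to 0.401) and 2.00 CPM of Cma1 (0 to 0.279). P5 replicate 3 did so with 8.0 CPM of Cpa3 (0.542 to 1.72) and 8.94 CPM of Tpsb2 (0.708 to 1.25), and P14 replicate 1 with 2.30 CPM of Mcpt4 (0.508 to 0.645). P60 replicate 2 was low for Cpa3, with 4.35 CPM against 7.09 to 7.59 CPM.

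The remaining 8 were libraries with 1 or 2 counts where the others of the stage had 0. There the gap equals the whole range, so these flags were fixed in advance. They were Mcpt4 in E13 replicate 1 (0.0331 CPM), Fcer1a in E13 replicate 3 (0.0361 CPM), E17 replicate 4 (0.126 CPM), P1 replicate 3 (0.0364 CPM), P5 replicate 3 (0.0428 CPM) and P24 replicate 3 (0.0494 CPM), and Ms4a2 in P1 replicate 3 (0.0364 CPM) and P14 replicate 4 (0.0380 CPM). A single count cannot be told from sampling noise.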

How the results depend on the processing

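Of 412 fold changes of single members under other settings, 381 kept their direction and their side of the threshold, 16 lost it, 15 gained it and 0 changed sign. With each library left out, 260 of 280 held, and 2 values that were not called changed sign, Mcpt4 from E17 to P1 (-3.50 to 0.74) and Cpa3 from P1 to P5 (-0.11 to 3.41). The causes were not tested. Limits of these values include the spread among 4 libraries and, for Fcer1a and Ms4a2, counts of 10 or fewer per library, and these limits were not weighed against others. Library size alone as the scaling moved the median of all genes to -0.33 from E13 to E17, -0.19 from P1 to P5 and -0.22 from P1 to P60, and changed the direction of no member.

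The members called from E13 to E17 (4) were 0 with limma-voom and sample quality weights (2 changes made together, and so for limma-voom throughout) and 2 in a fit on the compared stages alone. Mcpt4 and Tpsb2 did not pass the low-count filter of that last fit, in which Cpa3 and Cma1 stayed called. From E17 to P1 (2) they were 0 with limma-voom and on the compared stages alone, 1 with no filter or without the 3 libraries of steepest GC trend, and 3 with library size alone, where Kit (-1.01) passed 2-fold. From P1 to P5 (0) there was 1 with limma-voom or with no fold minimum, and 2 without E17 replicate 4, P1 replicate 3 and P5 replicate 3, the highest libraries of these stages (an alternative added after seeing the data). From P24 to P60 (1) they were 2 with limma-voom or no filter, 3 without the steep-GC libraries or those 3 libraries high in proteases, and 5 on the compared stages alone. Such counts take in Fcer1a and Ms4a2 where these passed the filter of that fit, and without those 3 libraries Kit and Mcpt4 were the calls among the 5 members tested before. Along the timeline (5) limma-voom called 2. Without the steep-GC libraries Cpa3 lost its call from E13 to E17 (3.56), and Cpa3, Cma1 and Tpsb2 lost their calls from P1 to P60, with fold changes of 2.40, 2.75 and 2.57 that stayed near the reported ones.

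The wider list from E17 to P1 (5) gave 8 with DESeq2, with library size alone or without E13, and 11 with no fold minimum. From P1 to P5 (2) it gave 1 with library size alone, the 1 CPM filter, limma-voom, or without the steep-GC or those 3 libraries high in proteases, and 12 with no fold minimum. No fold minimum also gave 15 for P14 against P5 (6 as reported), 5 for P24 against P14 (1) and 7 for P60 against P24 (2). For P60 against P24 the 1 CPM filter and the compared stages alone gave 0, and for P24 against P14 limma-voom gave 3.

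Leaving out 1 library, members called ran from 2 to 4 (E13 to E17), 0 to 4 (E17 to P1), 0 to 2 (P1 to P5) and 1 to 2 (P24 to P60), and the wider list from 1 to 3 (P1 to P5), 0 to 3 (P14 to P24) and 1 to 3 (P24 to P60). The share of Mcpt4 changed from P5 to P14 by -1.32 to 9.79 points. With Cpa3 as the partner, its change was -3.69 points for P24 against P14 and -0.46 for P60 against P24, and with Tpsb2 -6.59 for P24 against P14.

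With the replicate number as a block, the replicate block raised the members called from 0 to 1 from P1 to P5 and from 1 to 2 from P24 to P60, both by Mcpt4. Libraries of the same number deviated together with a median r of 0.08 over 84 pairs (-0.20 to 0.57, 33 over 0.1), and those of different number with a median of -0.04 over 252 pairs (29 over 0.1). Same-numbered libraries thus deviated together more often, as a hint from the data, but not in every pair, and the labels name nothing that a number marks, so they were not treated as pairs.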
